A study of Mus musculus with 4 samples.

Results

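Sgce, Ppp1r9a and Asb4 lie along 758673 bp of proximal mouse chromosome 6, and allele counts at their SNPs were examined in the gonadal fat pad of F1 mice. Every row of the deposited count tables that names one of these genes was taken, exonic and intronic, which gave 35 SNPs among the 311375 pairs of SNP and gene in the series. Of these SNPs, 5 belong to Sgce, 13 to Ppp1r9a and 17 to Asb4. All 35 had at least 1 read in some pool, and 23, 23, 24 and 15 of them were covered in the pools of BxD females, DxB females, BxD males and DxB males, respectively.

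The inbred strains C57BL/6J (B) and DBA/2J (D) were crossed in both directions, and the strain written first is the mother, so that BxD mice carry a maternal B and a paternal D allele and DxB mice the reverse. Total RNA of chow-fed F1 animals of 8 weeks by the labels was pooled into 4 libraries, with 3 animals for BxD female, 2 for DxB female, 3 for BxD male and 3 for DxB male. No transgene or deletion is named for these animals, each cross and sex is represented by 1 pool, and differences between animals inside a pool are not visible. Each RNA sequencing read over a SNP was counted for B or D, and the pools held between 4219333 and 5569347 such reads.

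For 2 of the libraries the label and the file name exchange identities, namely DxB female and BxD male. The file name was used here, and the number of animals follows the group name. The paper's mapping summary gives 180513 covered SNPs for its DxB female pool of 2 animals and 179535 for its BxD male pool of 3. These equal the numbers of covered SNPs in the pools so named by file. On the X chromosome, the median B share over exonic SNPs with at least 100 reads was 46.9% in BxD females (28 SNPs), 49.3% in DxB females (24), 99.9% in BxD males (26) and 0.104% in DxB males (22), each pool named by its file. Values under the label identity are given beside the exonic parental ratios and the sex results of Sgce, Asb4 and Ppp1r9a. Values from the 2 pools whose label and file name agree are given beside the exonic parental ratios. Reads of the adipocyte genes Lpl, Lep, Cidec and Car3 together made up 100230 to 131413 per 1000000 allele reads, most of them at Car3. Of 10 listed adipocyte markers, these 4 had SNP reads. Of 4 epididymis markers, 2 (Lcn5 and Adam7) had reads, 303 in the DxB male pool and 0 in the others, and their part in the results was not tested.

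Genomic imprinting silences a gene on the chromosome inherited from one parent, and imprinted genes usually sit in clusters that share a control region methylated in only one of the parental germ lines. In the cluster on proximal chromosome 6, that region lies at the promoters of Peg10 and Sgce, which are transcribed away from each other from the paternal chromosome. Sgce encodes epsilon-sarcoglycan, a membrane protein of the sarcoglycan family whose inactivation on the paternal chromosome causes myoclonus-dystonia in humans. Ppp1r9a encodes neurabin, an actin-binding scaffold of protein phosphatase 1, and Asb4 encodes an ankyrin repeat and SOCS box protein that acts in ubiquitin ligase complexes. Both of the latter are known as maternally expressed genes whose imprinting depends on tissue and stage, with placenta and embryo as the best known sites.

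In the mm9 assembly with GENCODE M1 annotation, Sgce (ENSMUSG00000004631.9) spans chr6:4624350-4697204 on the minus strand, and Peg10 begins 101 bp beyond its 5′ end on the plus strand. Ppp1r9a (ENSMUSG00000032827.8) spans chr6:4853004-5115661 and Asb4 (ENSMUSG00000042607.7) chr6:5333386-5383022, both on the plus strand. The genome base equalled the listed B base at all 35 SNPs. Because every result on Sgce depends on very few sites, the sites themselves are given, read from the genome in the direction of transcription as windows of 29 bases. The SNP, in capitals, is at position 15 counted from 1 at the 5′ end, and the D form differs by the substitution named.

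The only exonic SNP of Sgce in the tables (A15G) is at chr6:4639633-4639661, minus strand. It is synonymous, lies in exon 10 of 12 of the transcript with the longest coding sequence, at position 3 of its codon, and falls in an exon of each of the 11 annotated transcripts that span it.
Sgce exonic, B allele: caccctgtaactggAgaggttatacctcc
Sgce exonic, D allele: caccctgtaactggGgaggttatacctcc
The best covered intronic SNP of Sgce (A15T) is at chr6:4627882-4627910, minus strand, inside an intron of all 9 transcripts that span it.
Sgce intronic, B allele: tagacttttgcatcAatgggcctcagaac
Sgce intronic, D allele: tagacttttgcatcTatgggcctcagaac
For Ppp1r9a, the SNP with most reads is intronic (A15G), at chr6:5090907-5090935, plus strand.
Ppp1r9a intronic, B allele: aggagaagctgggcAatgctgggcagatt
Ppp1r9a intronic, D allele: aggagaagctgggcGatgctgggcagatt
For Asb4, the synonymous SNP of exon 3 of 6 (T15C) is at chr6:5348439-5348467, plus strand, and the best covered intronic SNP (A15T) is at chr6:5349916-5349944, plus strand.
Asb4 exon 3, B allele: tgctactccctgagTgggcacactgcttt
Asb4 exon 3, D allele: tgctactccctgagCgggcacactgcttt
Asb4 intronic, B allele: taaatgctaacattAaaatgaccaaagtc
Asb4 intronic, D allele: taaatgctaacattTaaatgaccaaagtc

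Sgce RNA came almost entirely from the paternal chromosome in all 4 pools. At its exonic SNP, the BxD female pool had 3 B reads and 838 D reads, and the BxD male pool had 4 B and 616 D reads. In the opposite cross, the DxB female pool had 658 B and 18 D reads and the DxB male pool 480 B and 3 D reads. The abundant base was D where the father was D and B where the father was B, with no overlap between the crosses. The paternal share was 99.6% in BxD females (95% Wilson interval 99 to 99.9%), 97.3% in DxB females (95.8 to 98.3%), 99.4% in BxD males (98.4 to 99.7%) and 99.4% in DxB males (98.2 to 99.8%). Over the pools, 2592 of 2620 reads were paternal, or 98.9% (98.5 to 99.3%). Intervals here and throughout take each count as independent and hold no spread between animals or pools. Mates were counted as separate reads and PCR copies cannot be told apart from molecules, so the intervals may be too narrow even for counting error.

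**Figure D1:**
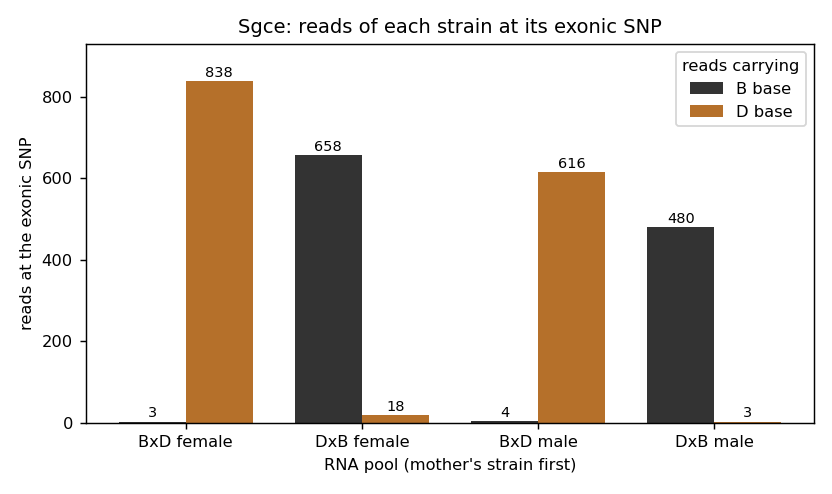
Reads (y axis, from 0) carrying the B base (dark) or the D base (brown) at the exonic SNP of Sgce in each RNA pool (x axis), with the read number on each bar. The tall bar is D in the BxD pools (838 and 616 reads) and B in the DxB pools (658 and 480 reads).

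With strain-specific counts treated as separate samples, the maternal to paternal log2 ratio of exonic Sgce reads was -6.48 ± 0.63 (SE, 4 maternal against 4 paternal allele libraries). This passed edgeR's quasi-likelihood test with Benjamini-Hochberg adjustment over 7990 genes (adjusted p = 0.02). It was 1 of 4 genes called in that test, or 0.0501% of those tested, the others being Trappc9, Meg3 and H13. Fitted over 86335 single SNPs with at least 10 reads, where 20 SNPs (0.0232%) were called, the exonic Sgce SNP gave -6.46 ± 0.63 (adjusted p = 0.0166 by the same test). The gene test rests on few libraries. Its adjusted p was 0.536 with the pool as a block, 0.304 without the BxD female pool, 0.512 without the BxD male pool, 0.612 without the DxB male pool and 0.00052 without the DxB female pool, all with log2 ratios from -7.56 to -6.10. Under the label identity the log2 ratio was -0.086 (adjusted p = 1), and the 2 pools whose label and file name agree gave -7.68 ± 0.42 (adjusted p = 0.215). The mean B share differed by -97.9 percentage points between the BxD pools (0.501% ± 0.204, SD, n = 2) and the DxB pools (98.4% ± 1.44, SD, n = 2). An exact two-sided permutation test of 2 against 2 pools cannot go below the value it gave, p = 0.333.

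Reads of the maternal Sgce allele were few but present in every pool. They made up 0.357% in BxD females (0.121 to 1.04%), 2.66% in DxB females (1.69 to 4.17%), 0.645% in BxD males (0.251 to 1.65%) and 0.621% in DxB males (0.211 to 1.81%). The DxB female pool thus held 18 of the 28 maternal reads, and the other 3 pools together had 10 maternal and 1934 paternal reads, a maternal share of 0.514% (0.28 to 0.944%). For a background measured in the same libraries, exonic SNPs of the X chromosome with at least 100 reads were taken. SNPs with under 1% of reads from one strain over the pools were left out beforehand. The paternal X chromosome, which males lack, gave a median share of 0.107% over 26 exonic SNPs in BxD males (range 0 to 6.51%) and 0.104% over 22 SNPs in DxB males (range 0 to 99%). Over all reads of these SNPs the share was 0.916% in BxD males (62 of 6772 reads) and 16.8% in DxB males (944 of 5617), and 13 of the 26 and 11 of the 22 SNPs were at 0. In male pools the maternal share of Sgce (0.645% and 0.621%) was above the medians, below the shares over all reads and inside both ranges. Of the 22 SNPs in DxB males, 5 were over 90% B, and 5 SNPs were over 90% B in each female pool. The cause of these high values was not tested, and with ranges this wide the comparison cannot separate Sgce from this background. Females carry a paternal X chromosome, so their Sgce shares have no such background. The DxB female share of 2.66% was above the 0.916% of BxD males. No other covered SNP lay within 50 bp of any Sgce SNP.

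The 4 intronic SNPs of Sgce, which can be read only in unspliced RNA or unannotated exons, carried 17 reads. The counts were 7 D reads in BxD females, 3 B reads in DxB females, 6 D reads in BxD males and 1 B read in DxB males. Each of these reads was paternal, so the maternal share was 0 of 17 reads, which allows up to 17.6% by a floor of 3 counts and 18.4% by the Wilson interval. Against a floor of 3 reads over the pools, paternal reads were at least 5.67-fold more frequent. In edgeR's test over 9561 genes, of which 3 (0.0314%) were called, Sgce was not among those called. Its maternal to paternal log2 ratio, fitted with 0 maternal reads, was -5.09 ± 1.28. It was -4.95 ± 2.41 in the pools whose label and file name agree and 0.26 under the label identity (adjusted p = 1 in each fit). At the best covered of these SNPs, shown above, all 8 reads were paternal and came from all 4 pools. The other 3 SNPs had 2, 2 and 5 reads, also all paternal.

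No difference of Sgce by strain or by sex passed its test. The D to B log2 ratio of exonic reads was 0.26 ± 1.38 (adjusted p = 0.952 by edgeR), in a test that called 1415 of 7990 genes (17.7%), with opposite bases abundant in the BxD and DxB pools. Scaled as reads per 1000000 allele reads of a pool, the level of the exonic SNP was 151 in BxD females, 129 in DxB females, 117 in BxD males and 114 in DxB males. By file name the male pools were below the female pools, whereas by label the ranges overlapped, with 117 to 151 in females and 114 to 129 in males. Over exonic and intronic SNPs, the male to female log2 ratio was -0.19 ± 0.19 (adjusted p = 0.912 by edgeR, 548 of 11055 genes called, or 4.96%), and -0.037 by label. The maternal to paternal log2 ratio differed between males and females by -1.22 ± 1.05 (adjusted p = 1 by edgeR, with 11 of 7990 genes, 0.138%, called), and by 0.38 by label. By file name, markers of mesothelium and skeletal muscle were lower in both male pools, which was not tested. Of 4 mesothelium markers, Wt1 alone had reads, at 146 and 67.7 reads per 1000000 allele reads in BxD and DxB females and 37.1 and 30.1 in the males. Of 3 skeletal muscle markers, Myh4 and Ckm had reads, together at 14.7 and 5.53 in the females and 0.754 and 0 in the males. By label the ranges of both lists overlapped, with Wt1 at 146 and 37.1 in females and 67.7 and 30.1 in males. By file name, macrophage markers went the other way (350 and 198 in females, 367 and 421 in males). Ranges of the fibroblast and ovary markers overlapped between the sexes. The part of these cells in the level of Sgce was not tested. In bulk tissue, fewer cells that express a gene and less RNA per cell cannot be told apart.

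Asb4 was read from both parental alleles in every pool at its 8 exonic SNPs that remained after close neighbours were removed. BxD females had 15 B and 6 D reads, DxB females 7 B and 4 D, BxD males 10 B and 4 D, and DxB males 5 B and 5 D. Of the 56 reads, 34 were maternal and 22 paternal, a paternal share of 39.3% (27.6 to 52.4%). The share was 28.6% in both BxD pools, 63.6% in DxB females and 50% in DxB males, so that maternal reads exceeded paternal reads in the BxD pools. With close SNPs kept, DxB males had 8 maternal and 6 paternal reads. The pools had 10 to 21 reads, and their intervals overlapped. Of the 8 SNPs, 2 lie 48 bp apart, so that a read of 50 bases may have been counted at both. SNPs farther apart in the same exon may also share counts, as the mates of one fragment were counted as separate reads. The 56 reads are therefore not 56 separate fragments for certain. The maternal to paternal log2 ratio was 0.55 ± 0.44 and did not pass edgeR's test (adjusted p = 1). It was 0.26 under the label identity and 0.75 ± 0.78 in the pools whose label and file name agree, neither of which passed.

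Counted by strain, 37 of the 56 exonic Asb4 reads carried the B base, or 66.1% (53 to 77.1%). The share was 71.4% in each BxD pool, 63.6% in DxB females and 50% in DxB males. Over all allele reads, the B share was 54% and 54.8% in BxD and DxB females and 53.7% and 53.8% in the males. The D to B log2 ratio of exonic Asb4 reads, -0.78 ± 0.41, did not pass edgeR's test (adjusted p = 0.263). Along the gene, the SNP of exon 3 shown above had 10 maternal and 3 paternal reads, a paternal share of 23.1% (8.18 to 50.3%). The 4 counted SNPs of exon 4 had 19 maternal and 17 paternal reads, a share of 47.2% (32 to 63%). In the 3′ untranslated part of exon 6, all 7 reads at 3 SNPs carried the B base, 5 of them maternal and 2 paternal. The intervals of the 3 exons overlapped. With SNPs of under 1% of reads from one strain removed, 5 exonic SNPs of Asb4 remained. They held 30 B and 19 D reads, or 61.2% B (47.2 to 73.6%).

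At the intronic SNPs of Asb4 every read carried the B base, whichever parent had passed it on. There were 5 B reads in BxD females, 2 in DxB females, 3 in BxD males and 3 in DxB males, and 0 D reads in any pool. By parent this is 8 maternal and 5 paternal reads, a paternal share of 38.5% (17.7 to 64.5%), with 0% in both BxD pools and 100% in both DxB pools. Of the 6 counted SNPs, 4 form pairs within 50 bp, the nearest 25 bp apart, and a read may have been counted at both SNPs of a pair, so the 13 counts are not 13 separate reads for certain and no lower bound of the ratio is given. The strain test over intronic counts takes them as separate and called Asb4 (adjusted p = 0.0113 by edgeR), 1 of 1082 genes called among 9561 (11.3%). The call was lost with DESeq2 (adjusted p = 0.0637), with the pool as a block (0.135), without the BxD female (0.104), BxD male (0.0586) or DxB male (0.0552) pool, and in the 2 pools whose label and file name agree (0.246). It held without the DxB female pool (0.0414). Of the 8 intronic SNPs, close ones included, each was read from B only with 1 to 5 reads, and among the 187884 intronic SNPs of the series with as many reads 40.4% were read from B only and 33% from D only. Of the 97 genes with 13 intronic reads, 6 had B reads only and 1 had D reads only. The paper sequenced DNA of D mice at a subset of SNPs with exclusive B expression and could verify none of these. Whether the SNPs of Asb4 read from B only differ in D DNA was not tested, so a strain difference in expression cannot be read from them.

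Ppp1r9a had reads of both alleles, and no excess of either parent passed a test. Its exonic SNP, in the 3′ untranslated part of exon 16 of 16 at chr6:5113191, had 3 B and 4 D reads in BxD females, 0 B and 3 D in DxB females, 2 B and 2 D in BxD males, and 2 B and 0 D in DxB males. Maternal and paternal reads were 8 each, a paternal share of 50% (28 to 72%). The maternal to paternal log2 ratio was -0.06 ± 0.98 (adjusted p = 1 by edgeR), -1.12 by label and -1.06 ± 1.55 in the pools whose label and file name agree. The D to B log2 ratio was 0.43 ± 0.87 (adjusted p = 0.813 by edgeR). DxB females and DxB males went opposite ways here, on 3 and 2 reads.

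More reads of Ppp1r9a lay in its introns, 59 over 12 SNPs. The nearest of these SNPs lie 170 bp apart, so that mates of one fragment may have been counted at both. BxD females had 8 B and 9 D reads, DxB females 12 B and 9 D, BxD males 4 B and 5 D, and DxB males 6 B and 6 D. The paternal share was 52.9%, 57.1%, 55.6% and 50% in these pools, and 54.2% over all (41.7 to 66.3%). The intronic maternal to paternal log2 ratio was -0.22 ± 0.48 and the D to B log2 ratio 0.06 ± 0.49, and neither passed edgeR's test (adjusted p = 1 and 0.985). Within the gene, the SNP shown above had 5 maternal and 14 paternal reads, a paternal share of 73.7% (51.2 to 88.2%). A SNP at chr6:5104853 in the same intron had 7 maternal and 3 paternal reads, or 30% (10.8 to 60.3%). The remaining intronic SNPs had 9 reads or fewer. Under the label identity the paternal shares of Ppp1r9a and Asb4 stayed inside the intervals given for their exonic and intronic reads.

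**Figure D2:**
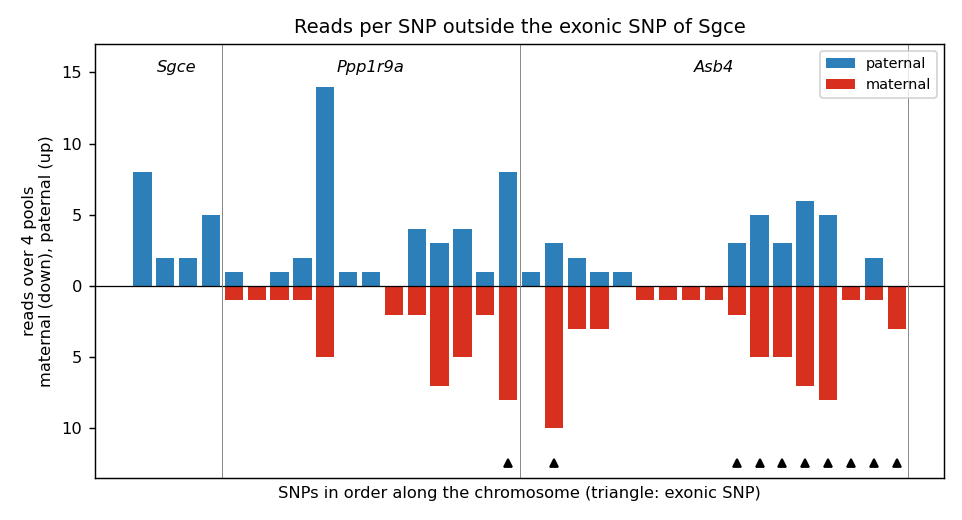
Reads of the paternal allele (blue, up) and of the maternal allele (red, down) summed over the 4 pools at each SNP of the 3 genes (x axis, in order along the chromosome), leaving out the exonic SNP of Sgce with its 2620 reads. Triangles mark exonic SNPs. The 17 intronic reads of Sgce are all paternal, whereas Ppp1r9a and Asb4 show reads of both parents.

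**Figure D3:**
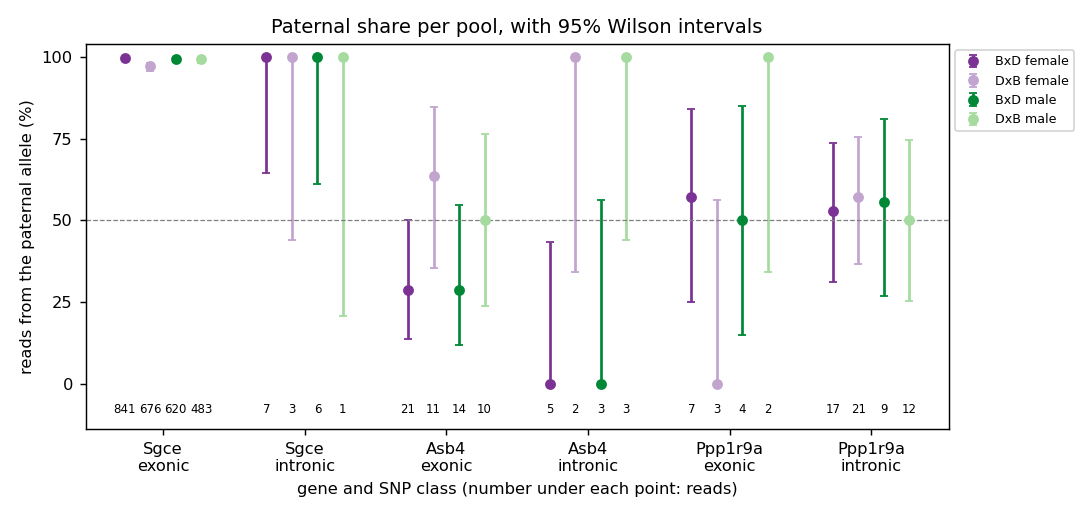
Share of reads from the paternal allele (y axis, %) for each gene and SNP class (x axis) and pool (colour), with 95% Wilson intervals and the number of reads under each point. Exonic Sgce lies between 97.3% and 99.6%, and intronic Asb4 at 0% in the BxD pools and 100% in the DxB pools, as every read carried the B base.

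No sex difference in the total of Asb4 or Ppp1r9a reads passed its test. Exonic Asb4 reads per 1000000 allele reads were 3.77 in BxD females, 2.1 in DxB females, 2.64 in BxD males and 2.37 in DxB males, with the male pools inside the range of the females by file name. By label both male pools of Asb4 (2.1 to 2.37) were below both female pools (2.64 to 3.77). Intronic Ppp1r9a reads per 1000000 allele reads were 3.05 and 4 in the BxD and DxB female pools and 1.7 and 2.84 in the BxD and DxB male pools, so that both male pools were below both female pools by file name. By label the sets overlapped, with 1.7 to 3.05 in females and 2.84 to 4 in males. Over exonic and intronic SNPs, the male to female log2 ratio was -0.10 ± 0.49 for Asb4 (adjusted p = 0.984) and -0.55 ± 0.47 for Ppp1r9a (adjusted p = 0.88, both by edgeR). By label these ratios were -0.39 and 0.34. The difference of the parental ratio between males and females was 0.19 ± 1.01 for Asb4 and -1.60 ± 2.20 for Ppp1r9a, and neither passed (adjusted p = 1 for each by edgeR). By label these differences were 0.20 for Asb4 and -4.26 ± 1.63 for Ppp1r9a, which has 16 exonic reads, and neither passed.

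The better covered neighbours of the 3 genes on proximal chromosome 6 were read from both parents. Of 22 listed symbols, of which Ccdc132 and Vps50 name the same gene, 11 had SNP reads, 8 of them in exons, and none of these 8 passed the parental test in either direction (edgeR, adjusted p under 0.05; 0.0501% of all genes passed). Their median maternal to paternal log2 ratio was 0.12, beside -0.006 over all genes tested. In the 6 neighbours with at least 50 exonic reads, the paternal share ranged from 40.2% to 54.1%. On the Peg10 side of Sgce no SNP of Peg10 was analysed here. On the other side Casd1, an acetyltransferase of sialic acids, had 119 maternal and 106 paternal reads (47.1% paternal, 40.7 to 53.6%), and the collagen gene Col1a2 had 3181 and 3017 (48.7%, 47.4 to 49.9%). Between Ppp1r9a and Asb4, the paraoxonase gene Pon2 had 2693 maternal and 2440 paternal reads (47.5%, 46.2 to 48.9%). The paternal share of Pon2 was lower in the BxD pools (41.7% and 43.6%) than in the DxB pools (53.9% and 53.2%), as in Asb4 and as in Slc25a13 farther along, where 71.3% of 87 reads carried the B base (61 to 79.7%). Casd1 went the other way, with 53.2% and 55.9% paternal in the BxD pools and 37.1% and 40.5% in the DxB pools, and so did Hepacam2 on 28 reads. An excess of B reads lowers the paternal share in BxD pools and raises it in DxB pools. The B share of Pon2 was 55.6% (54.3 to 57%), beside 53.7 to 54.8% over all allele reads of the pools. None of the 8 exonic neighbours passed the strain test, in which 17.7% of all genes were called.

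**Figure D4:**
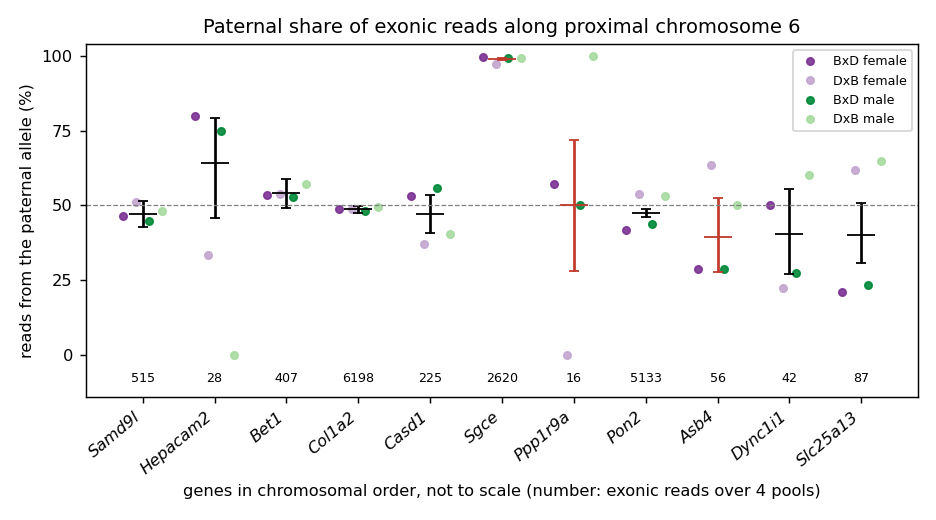
Share of exonic reads from the paternal allele (y axis, %) for the genes of proximal chromosome 6 with exonic SNP reads, in chromosomal order (x axis, not to scale). Small points are the 4 pools, and the horizontal bars with whiskers give all pools together with the 95% Wilson interval, in red for Sgce, Ppp1r9a and Asb4. Sgce stands at 98.9%, and the neighbours with at least 50 reads lie between 40.2% and 54.1%.

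Set beside the 5454 genes with at least 10 exonic reads in every pool, whose median paternal share was 50%, Sgce was the 1 gene over 90% paternal in all 4 pools, and Meg3 and Zim1 were the 2 genes over 90% maternal in all. By label, Sgce would be at 2.66% and 0.645% paternal in the exchanged pools. The genes nearest to Sgce, by the mean absolute difference in paternal share over the 4 pools, were Ndn (4.53 percentage points), Trappc9 (10), Plagl1 (12.3), Hoxb9 (27.1) and AW544981 (31.6). Ndn, which encodes the growth suppressor necdin, was 97.1%, 87%, 98.8% and 94.7% paternal in BxD females, DxB females, BxD males and DxB males. The genes nearest to Asb4 were Arhgef19 (2.48 points), Hpse (2.81), Dhx29 (3.2), EG432838 (3.43) and EG639281 (3.73). Each had more B than D reads in the BxD pools, which follows from choosing them by their shares. Ppp1r9a was below 10 exonic reads in every pool, and no nearest genes were sought for it.

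**Figure D5:**
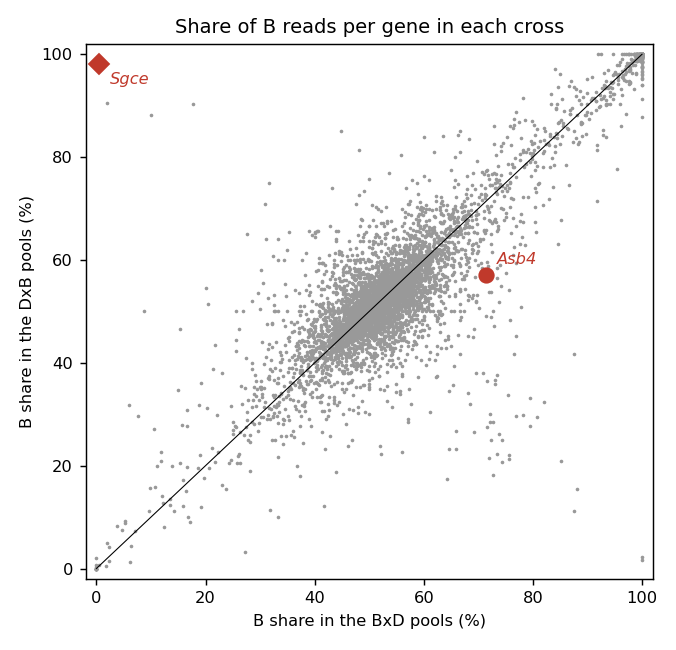
Share of B reads (%) in the BxD pools (x axis) against the DxB pools (y axis) for the 5724 genes with at least 20 exonic reads in each cross (grey). Sgce, at 0.479% and 98.2%, is in the upper left corner, and Asb4, at 71.4% and 57.1%, is among the bulk of genes near the diagonal. Ppp1r9a had 11 and 5 reads and is not drawn.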

How the data were processed

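RNA from 4 pools of F1 adipose tissue was sequenced, and the deposited values are raw counts of reads per SNP and strain, without normalization. Per the study's methods, the authors aligned the mates of each pair as single reads with mrsFAST to mm9, with the D variants masked and up to 3 mismatches allowed, and aligned the unmapped reads with TopHat (version 1 in the submitters' processing notes, which also name CASAVA). They counted uniquely mapped reads at known variants. A part of the supplementary methods reads as if the masking was not applied, and unmasked alignment would favour B reads. The version of mrsFAST is not given in the sources used here. The methods give a greater age of the mice than the labels.

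Exonic and intronic SNPs are those of the authors' class column. Within an exon or region, SNPs at most 18 bp behind a counted SNP were dropped, which left 44210 exonic and 219363 intronic SNPs. Counts were summed per gene, and the B and D counts of a pool were treated as separate libraries (8 in all), as in the study. Tests used edgeR 4.0.16 (TMM, quasi-likelihood fit, Benjamini-Hochberg, threshold 0.05) in R 4.3.3, in place of the study's DESeq, with DESeq2 1.42.0 as an alternative. Standard errors were derived from the F statistic and the log2 ratio. The replicates are different crosses and sexes, so p-values include that spread. Shares have 95% Wilson intervals and a floor of 3 counts, from SciPy 1.17.1. The alleles of a pool come from the same animals, and their deviations from the strain means correlated in all 4 pools (r from 0.12 to 0.625 over 5309 genes), so the pool was also fitted as a block.

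SNP annotation and sequences come from the mm9 (NCBIM37) genome with GENCODE M1. The 3 genes were named in every result, and other genes by a list of neighbours, by nearness in paternal share or by the parental test. The genes, lists and the file-name identity were chosen with earlier results of these data known. No strand information is in the tables, so overlapping and antisense transcripts cannot be told apart. Alternatives were another library size, minimum counts, all SNPs, the label identity, strain or cross as a covariate, removal of SNPs with under 1% of reads from one strain or with the same base listed for both, and each pool left out. Added after the data were seen were the sum of exonic and intronic SNPs and the pools whose label and file name agree.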

Additional observations from a re-analysis of the deposited data

Results flagged for a closer look

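The maternal share of exonic Sgce reads in the DxB female pool was 2.66%, and the gap to the nearest other pool was 0.875 of the whole range over the 4 pools, above Dixon's 95% critical value for 4 samples. The other pools stood at 0.357%, 0.621% and 0.645%. The interval of the DxB female pool (1.69 to 4.17%) did not overlap those of the BxD female (0.121 to 1.04%) and BxD male (0.251 to 1.65%) pools, and overlapped that of the DxB male pool (0.211 to 1.81%). It is the pool with 2 animals by its name and one of those whose label and file name differ. Chance marks about 1 in 20 groups in this way, and the 4 pools are not replicates of one group, as they differ in cross and sex. A cause was not tested.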

How the results depend on the processing

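The direction of Sgce toward the paternal allele was the same under every alternative with the file-name identity, with exonic log2 ratios from -7.68 to -6.10, and its test call was lost under the alternatives named beside it. The exonic Sgce share was 98.6 to 99.5% paternal with each pool left out, the upper value without the DxB female pool, and 51.1% under the label identity (47.1% for intronic reads). Of 180 values of the log2 ratios of Sgce, Asb4 and Ppp1r9a under the alternatives, 147 kept direction and side of the threshold, 16 kept direction and lost the call, and 17 changed direction, none of which was a call.

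The number of genes past the threshold in the exonic parental test was 4, and it was 7 with DESeq2, 7 with strain as a covariate, 2 with close SNPs kept, 0 under the label identity (38 at an unadjusted p under 0.05 by edgeR), 0 in the pools whose label and file name agree (10) and 0 to 1 with each pool left out. It was 0 without BxD males (43) and without DxB males (35). In the intronic parental test (3 genes) it was 11 with strain as a covariate and 0 under the label identity (95). The exonic strain test called 694 and the intronic one 473 genes in the pools whose label and file name agree. For the difference of parental ratio between the sexes (11 genes), DESeq2 called 26 and the label identity gave 0 (18). Over single SNPs (20 called), 59 passed with DESeq2, 11 with at least 20 reads per SNP, 0 under the label identity (979) and 0 to 9 with each pool left out, with 0 without BxD females (1178) or DxB males (1226). The male to female test of total reads (548 genes) called 155 with DESeq2, 0 under the label identity (469) and 244 to 690 with each pool left out.

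With the pool as a replicate block, the pairing of the alleles of a pool gave 0 genes in the exonic (37) and intronic (60) parental tests and in the test by sex (50), and 2175 genes in the exonic strain test. The block changed no member call other than those of Sgce in the exonic parental test and Asb4 in the intronic strain test. The cause of these changes was not tested.

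Among ratios that were no call, Ppp1r9a changed direction to 0.028 (exonic parental, strain as a covariate), to -0.27 (exonic strain, pools whose label and file name agree), to -0.054 (intronic strain, 1 library size per pool) and, under the label identity, to 0.13 (intronic parental) and 0.34 (males against females). The label identity also turned Sgce to 0.26 (intronic parental) and 0.38 (parental ratio by sex). With each pool left out, Ppp1r9a ranged from -0.75 to 0.37 (exonic parental), -0.14 to 0.94 (exonic strain) and -0.027 to 0.25 (intronic strain), Sgce from -0.86 to 1.33 (exonic strain), and Asb4 from -0.75 to 1.70 (intronic parental) and -0.41 to 0.34 (males against females). No value was obtained for intronic Asb4 with SNPs of under 1% of reads from one strain removed, as none remained.

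Depth limits Asb4 and Ppp1r9a: with 56 and 16 exonic reads, the intervals of the paternal share reach from 27.6 to 52.4% and from 28 to 72%, and smaller departures from equal shares were not detectable. Sgce rests on 1 exonic SNP.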
